A study of Homo sapiens with 6 samples.

Results

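Promoter peaks of protein-coding genes are the UCHL1 ChIP-seq peaks on chromosomes 1 to 22 that share at least 1 base with a window of 1 kb on each side of the transcription start of a protein-coding transcript in GENCODE 44 mapped to hg19. The rule uses position only. It selected 315 of 5873 peaks on these chromosomes, of 6813 peaks in all. They comprised 62 of 2574 peaks from DU 145 cells cross-linked with 1% formaldehyde, 37 of 1274 peaks from DU 145 cells treated with 1 mM DSP and 1% formaldehyde (dual cross-linking), and 216 of 2025 peaks from HEK293T cells treated with the same 2 agents. These concentrations are those of the labels, and the study's methods give less formaldehyde for dual cross-linking. A figure caption of the study places HEK293T under formaldehyde without DSP, whereas the labels and its methods give dual cross-linking. By the same methods, formaldehyde chromatin was sonicated and dual cross-linked chromatin was cut with micrococcal nuclease, so cross-linker and fragmentation cannot be told apart. DU 145 is an androgen-insensitive prostate cancer line from a brain metastasis, and HEK293T is a transformed line from human embryonic kidney. Each condition had 1 UCHL1 ChIP library and 1 input library, so there is no replicate check on any value and no test was run. Intervals below are 95% Wilson intervals for shares and 95% order-statistic intervals for medians, and they cover counting error only.

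UCHL1 is a deubiquitinating enzyme that is abundant in neurons and is also made by some tumour cells. A promoter is the stretch around a transcription start where RNA polymerase II and its general factors assemble. Many promoters lie in CpG islands, which are rich in G and C and retain the CpG dinucleotide that is depleted from most of the genome. Other starts lie in sequence of ordinary base content, and many genes have several starts, some of them inside the gene. A peak here is an interval where MACS found more ChIP tags than the local background from the input, and its fold enrichment is the ratio of the former to the latter.

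Sequences are shown for each list because the 3 lists differed in what lay under their peaks. SPDYE2, ANKRD13D, the stronger dual cross-linked PCGF3 peak, NINJ2, TRAF7 and MAZ are from the promoter peaks with the highest fold enrichment. The other PCGF3 peaks are shown because this gene was marked in 2 lists. All are read from hg19 on the plus strand. Capitals mark the hexamer CCCTAA where a peak held it in tandem, otherwise runs of at least 12 A or 12 T, otherwise CpG dinucleotides. The COX16 and RBPJL peaks were added after their values were seen, as examples of a T run and of a second telomeric gene.
SPDYE2, DU 145 formaldehyde, chr7:102196011-102196141: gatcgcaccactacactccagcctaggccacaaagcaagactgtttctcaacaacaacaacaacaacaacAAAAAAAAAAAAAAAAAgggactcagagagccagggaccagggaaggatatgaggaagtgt
ANKRD13D, DU 145 formaldehyde, chr11:67057076-67057126: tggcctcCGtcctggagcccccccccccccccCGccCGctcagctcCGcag
COX16, DU 145 formaldehyde, chr14:70883012-70883064: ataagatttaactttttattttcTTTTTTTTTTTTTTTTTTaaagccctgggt
PCGF3, DU 145 formaldehyde, chr4:698911-698996: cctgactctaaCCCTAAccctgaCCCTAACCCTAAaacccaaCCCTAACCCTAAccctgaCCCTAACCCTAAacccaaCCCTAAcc
PCGF3, DU 145 dual, chr4:698890-699010: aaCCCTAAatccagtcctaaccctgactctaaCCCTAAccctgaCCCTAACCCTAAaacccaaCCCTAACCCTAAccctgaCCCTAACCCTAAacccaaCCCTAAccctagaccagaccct
PCGF3, DU 145 dual, chr4:698721-698824: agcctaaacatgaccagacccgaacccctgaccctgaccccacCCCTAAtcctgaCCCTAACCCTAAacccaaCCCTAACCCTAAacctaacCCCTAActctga
RBPJL, DU 145 dual, chr20:43941958-43942054: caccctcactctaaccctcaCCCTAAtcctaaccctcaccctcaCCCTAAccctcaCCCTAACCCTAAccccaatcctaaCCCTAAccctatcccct
NINJ2, DU 145 dual, chr12:752460-752527: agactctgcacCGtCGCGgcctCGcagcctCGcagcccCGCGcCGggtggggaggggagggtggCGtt
TRAF7, HEK293T dual, chr16:2204890-2205031: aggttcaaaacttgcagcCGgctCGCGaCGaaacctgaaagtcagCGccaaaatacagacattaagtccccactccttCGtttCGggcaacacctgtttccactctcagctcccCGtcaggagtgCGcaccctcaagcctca
MAZ, HEK293T dual, chr16:29820354-29820551: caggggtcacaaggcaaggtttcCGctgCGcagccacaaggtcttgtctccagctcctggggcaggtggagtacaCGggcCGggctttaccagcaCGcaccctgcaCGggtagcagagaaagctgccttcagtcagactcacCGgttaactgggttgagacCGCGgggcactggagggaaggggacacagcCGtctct

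To learn how often UCHL1 peaks lay near gene starts, the share of promoter peaks in each list was set beside the share of all positions on the same chromosomes at which an interval of the same length would touch a window. These positions were enumerated rather than drawn, and they take the place of random intervals. In HEK293T, 10.7% of peaks were promoter peaks (interval 9.40% to 12.1%) against 3.71% of positions, a ratio of 2.88 (2.54 to 3.26). In DU 145 with dual cross-linking the share was 2.90% (2.11% to 3.98%) against 3.06% of positions, a ratio of 0.949 (0.691 to 1.30). In DU 145 with formaldehyde it was 2.41% (1.88% to 3.08%) against 3.08% of positions, a ratio of 0.783. The HEK293T interval thus lay above the share of positions, whereas both DU 145 intervals included it or reached it. The windows belonged to 18893 genes and 75494 distinct starts and covered 2.58% of the determined bases.

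HEK293T had the highest ratio close to the starts and further out, whereas the DU 145 lists changed places at 250 bp. Within 250 bp of a start lay 71 HEK293T peaks (3.51% against 1.42% of positions), 15 formaldehyde peaks (0.583% against 1.02%) and 6 dual cross-linked DU 145 peaks (0.471% against 1.07%). The ratios were 2.47, 0.571 and 0.441, and both DU 145 intervals ended below 1, at 0.939 and 0.957. At 2 kb the ratio was 3.15 in HEK293T and, in DU 145, 0.963 with formaldehyde and 1.21 after dual cross-linking. With only the annotated start of each gene the ratio was 2.74 in HEK293T and, in DU 145, 0.768 with formaldehyde and 1.05 after dual cross-linking. Such starts need not be those of protein-coding transcripts, so a few peaks counted in the dual cross-linked lists were not promoter peaks.

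**Figure D1:**
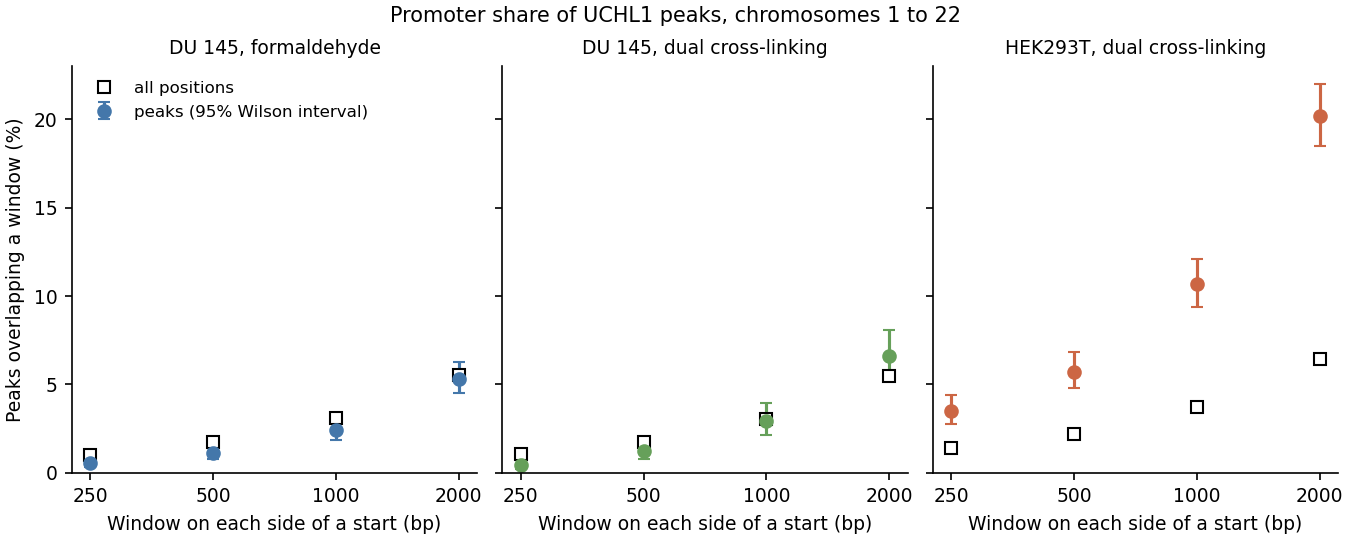
Share of UCHL1 peaks (%) that overlap a window of 250, 500, 1000 or 2000 bp on each side of a protein-coding start, by peak list. Filled points with bars are peaks with 95% Wilson intervals and open squares are the exact share of all positions for intervals of the same lengths. HEK293T peaks stood at 10.7% against 3.71% of positions at 1 kb, and the DU 145 lists at 2.41% and 2.90% against 3.08% and 3.06%.

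The HEK293T promoter peaks were concentrated on 3 chromosomes. Chromosome 16 held 46, chromosome 19 held 40 and chromosome 17 held 34, together 120 of the 216 (55.6%), whereas these chromosomes held 4.77%, 7.23% and 6.38% of the window bases. In the same order they held 243, 203 and 139 of all 2025 HEK293T peaks, so part of this concentration was shared by the whole list. On chromosome 16, 18.9% of the peaks were promoter peaks against 4.53% of positions. The corresponding values were 24.5% against 6.15% on chromosome 17 and 19.7% against 9.60% on chromosome 19. Without these chromosomes the HEK293T share was 6.67% (96 of 1440 peaks) and the ratio to positions was 2.67 (2.20 to 3.23). Of the DU 145 promoter peaks, 14 of 62 (22.6%) with formaldehyde and 7 of 37 (18.9%) with dual cross-linking lay on the same chromosomes.

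Relative to the nearest start, HEK293T promoter peaks lay mostly downstream. Their summits were upstream in 72 of 216 peaks (33.3%, 27.4% to 39.9%), compared with 48.7% of the window bases. The share upstream was 26 of 62 (41.9%, 30.5% to 54.3%) for formaldehyde and 17 of 37 (45.9%, 31.04% to 61.6%) for dual cross-linked DU 145 peaks, both intervals including the share of the bases. The 250 bp just upstream of the start, the usual place of the core promoter and proximal factor sites, held 7.41% of HEK293T summits and 14.9% of the window bases. Only 1 of the 37 dual cross-linked DU 145 summits (2.70%) fell there, and 8 of the 62 formaldehyde summits (12.9%). A start lay inside the peak itself in 17 HEK293T peaks, 3 dual cross-linked DU 145 peaks and 2 formaldehyde peaks.

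**Figure D2:**
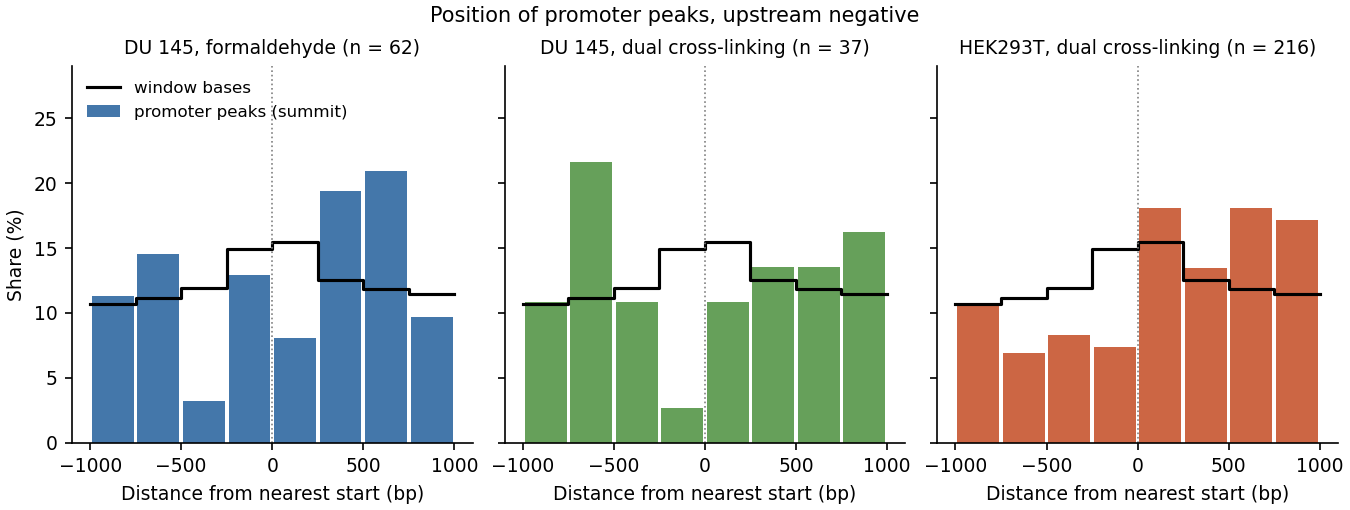
Distance in bp from the nearest protein-coding start to the summit of each promoter peak, in steps of 250 bp with upstream negative, as a share (%) of the promoter peaks of each list (bars) and of the window bases (black line). Summits past 1 kb are in the outer bars. In HEK293T the 250 bp just upstream held 7.41% of the summits against 14.9% of the bases, and the 250 bp just downstream 18.1% against 15.5%.

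The summits of the formaldehyde promoter peaks never fell in an exon of a protein-coding transcript. There, 50 of 62 lay in introns (80.6%) and 12 outside transcripts (19.4%), where introns made up 58.0% and sequence outside transcripts 21.0% of the window bases. In HEK293T, 113 of 216 summits lay in introns (52.3%), 33 in coding sequence (15.3% against 9.09% of the bases), 29 in 5' UTRs (13.4% against 10.8%), 11 in 3' UTRs (5.09% against 1.19%) and 30 outside transcripts (13.9%). Dual cross-linked DU 145 peaks had 20 of 37 summits in introns, 9 outside, 5 in coding sequence, 2 in 5' UTRs and 1 in a 3' UTR. About equal parts of the lists, 31, 18 and 103 peaks, were within 1 kb of the annotated start of a gene, and the others were near starts of further transcripts. Windows of 2 or more genes contained 25 HEK293T peaks (11.6%), 7 formaldehyde peaks (11.3%) and 1 dual cross-linked DU 145 peak (2.70%), compared with 5.28% of the window bases.

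The nearest start was CpG-rich (GC of at least 50% and observed over expected CpG of at least 0.6 in its window) for 113 of 216 HEK293T promoter peaks (52.3%, 45.7% to 58.9%). This was so for 31.4% of the window bases. It was so for 17 of 62 formaldehyde peaks (27.4%, 17.9% to 39.6%) and 10 of 37 dual cross-linked DU 145 peaks (27.0%, 15.4% to 43.0%). The intervals of both DU 145 lists included the share of the bases. Counted by distinct starts, 44.5% were CpG-rich, which lay above both DU 145 intervals and just below that of HEK293T. The comparison thus depends on the background chosen.

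The base content of the formaldehyde promoter peaks differed from that of protein-coding starts in general. Their median GC content was 32.1% (27.8% to 35.4%), ranging from 10.9% to 82.4%. For each peak, the mean GC of all protein-coding starts was taken over the same length and offset. These means had a median of 52.7% over the 62 peaks, and only 2 of the 62 peaks were above the mean for their own offset. The median difference was -21.75 percentage points. The other formaldehyde peaks of the list had a median GC of 29.2%, so peaks near starts shared the low GC of the rest of their list. In 34 of the 62 (54.8%) the peak held no CpG at all.

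A run of at least 12 A or at least 12 T, a class chosen after seeing the data, was present in 52 of 62 formaldehyde promoter peaks (83.9%, 72.8% to 91.0%). It was present in 73.1% of the other peaks of that list and in 1.17% of consecutive 68-base pieces of all windows. The median longest run was 17 bases. COX16, which encodes a protein needed for cytochrome c oxidase assembly, is an example, with 18 T in a row, 6 tags and a fold enrichment of 9.3. The 52 peaks with such a run had a median fold enrichment of 14.6 and 7 tags, and the 10 without had 23.7 and 7 tags. The run was present in 3 of 37 dual cross-linked DU 145 promoter peaks (8.11%) and in 4 of 216 HEK293T promoter peaks (1.85%), against 1.71% and 2.23% of window pieces of 97 and 126 bases. The part of sequence composition in the calling of these peaks was not tested.

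With dual cross-linking the promoter peaks had a median GC content near the average of all protein-coding starts in both cell lines. The median was 54.2% (47.4% to 56.3%) in DU 145 and 53.5% (51.9% to 54.5%) in HEK293T. The means of all starts at the offsets of these peaks had medians of 51.6% and 52.9%. Above the value for their own offset were 18 of 37 peaks (48.6%) and 97 of 216 (44.9%). With CpG-rich starts alone as the reference, the medians of the means at these offsets were 56.6% in DU 145 and 58.9% in HEK293T. Promoter peaks whose nearest start was CpG-rich had a median GC of 57.0% in DU 145 (10 peaks, 45.6% to 76.5%). In HEK293T it was 53.9% (113 peaks, 51.35% to 55.5%). This was below the 58.9% for CpG-rich starts, which was taken over the offsets of all 216 peaks. The other peaks of each list had a median of 47.1%. Observed over expected CpG had a median of 0.306 in DU 145 and 0.383 in HEK293T, and 0.151 and 0.277 in the other peaks. A HEK293T promoter peak held a median of 3 CpG, with 0 in 17 of the 216, and a dual cross-linked DU 145 peak 2, with 0 in 11 of the 37.

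**Figure D3:**
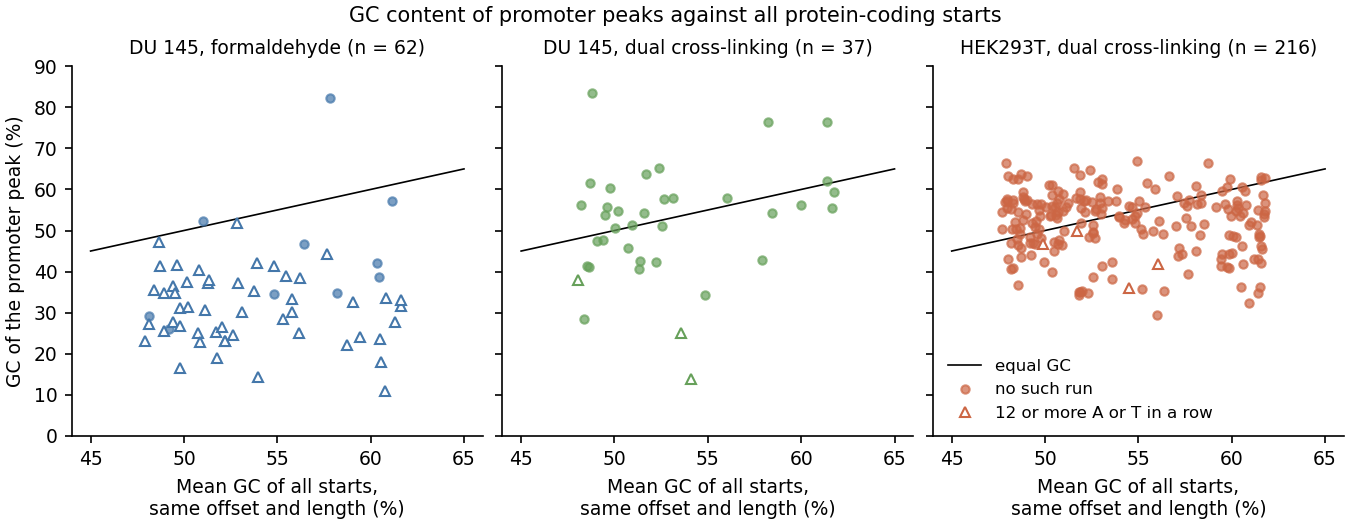
GC content (%) of each promoter peak against the mean GC content (%) of all protein-coding starts over the same offset and length, by list. Open triangles hold a run of at least 12 A or 12 T and the line marks equal GC. Formaldehyde peaks lay below the line except 2 of 62, whereas 18 of 37 and 97 of 216 dual cross-linked peaks lay above it.

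Tandem telomeric hexamers (at least 2 consecutive CCCTAA or TTAGGG) were found in 4 promoter peaks in all, at 2 genes. They were 1 of 62 formaldehyde peaks (1.61%), 3 of 37 dual cross-linked DU 145 peaks (8.11%, 2.796% to 21.3%) and 0 of 216 HEK293T peaks (interval up to 1.75%). Among consecutive pieces of the windows, such repeats occurred in 26 of 1002740, 28 of 695524 and 27 of 528277 pieces of the matching length. The other peaks of the lists held them in 2.99%, 11.96% and 2.65%. None of the 4 had 4 hexamers in tandem: as the sequences above show, units were broken by variants such as ccctga and acccaa. Unbroken purine or pyrimidine stretches of 30 bases or more, of which 20% or more were G (or C), were in 0 of the 315 promoter peaks. The other peaks held them in 2.35% of the formaldehyde list, 8.49% of the dual cross-linked DU 145 list and 0.387% of the HEK293T list.

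A motif that can form a G-quadruplex, 4 runs of at least 3 G (or C) with gaps of at most 7 bases on either strand, was present in 6 of 37 dual cross-linked DU 145 promoter peaks (16.2%, 7.65% to 31.1%), against 5.35% of window pieces. It was present in 2 of 62 formaldehyde promoter peaks (3.23%), against 3.53%, and in 4 of 216 HEK293T promoter peaks (1.85%, 0.722% to 4.66%), against 7.11%. The motif can overlap telomeric repeats. The other peaks of the lists held it in 16.5%, 4.34% and 5.53%, in the same order.

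The median strength of promoter peaks was within 1.2 times that of the other peaks of their list by fold enrichment, and the highest values lay elsewhere. The median fold enrichment was 15.5 (13.0 to 20.9) for formaldehyde promoter peaks and 16.5 for the other peaks. For dual cross-linked DU 145 peaks it was 16.02 (14.01 to 16.69) and 18.02, and for HEK293T peaks 13.99 (13.8 to 15.4) and 13.2. The highest fold enrichment of a promoter peak was 49.6, 53.4 and 24.9 in these lists, and that of another peak 162.5, 235.1 and 71.3. Median tags were 7 and 7 in the formaldehyde list, 8 and 8 in the dual cross-linked DU 145 list, and 10 and 12 in the HEK293T list. In HEK293T the direction therefore depended on the measure, with fold enrichment higher and tags lower at promoters. Tag numbers are not scaled, because the files give no library totals, and are not compared between lists.

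By the deposited FDR, 0 of 62 formaldehyde promoter peaks passed 5% (interval up to 5.83%), against 2.06% of all peaks of the list. Of the dual cross-linked DU 145 peaks 23 of 37 passed (62.2%), against 68.8% of all peaks, and in HEK293T 37 of 216 passed (17.1%), against 17.8%. The shares were near the background in all 3 lists, so the FDR did not set promoter peaks apart. The median FDR of the promoter peaks was 18.6% with formaldehyde and 30.6% in HEK293T.

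Between the cell lines, HEK293T promoter peaks had the lower fold enrichment in 59.5% of all pairs of a dual cross-linked DU 145 and a HEK293T promoter peak. Over all peaks of the lists this was 74.4% of pairs. No ratio per site could be formed, because no promoter peak of one cell line overlapped a peak of the other by the midpoint rule (the centre of either peak in the other).

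**Figure D4:**
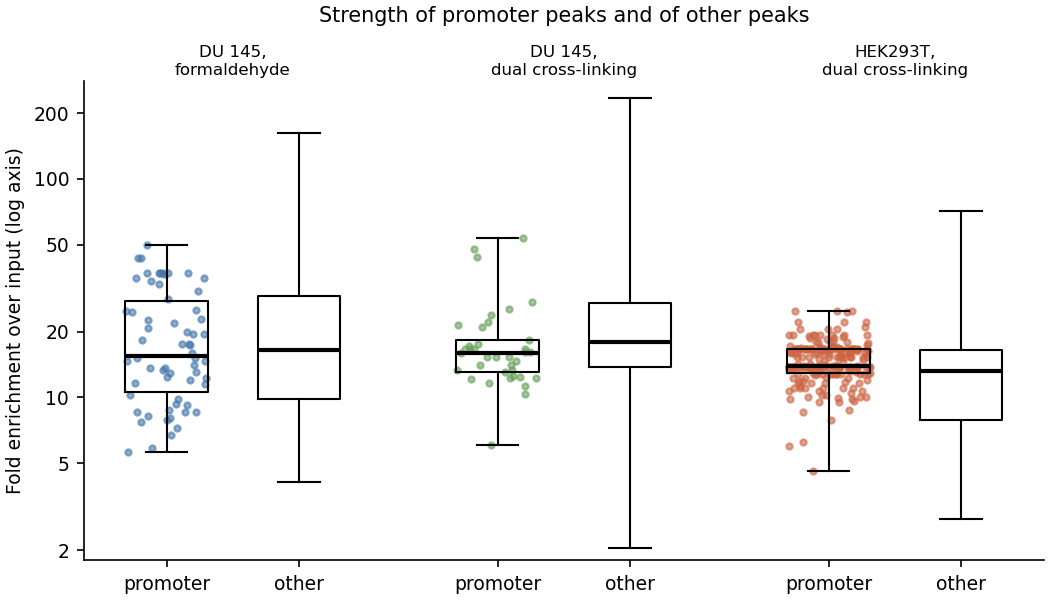
Fold enrichment over input, on a log axis, of promoter peaks (each a point, with box) and other peaks (box only) by list. Boxes span the quartiles with the median as a thick line, and whiskers reach the lowest and highest value. Medians were 15.5 and 16.5 in the formaldehyde list, 16.02 and 18.02 in the dual cross-linked DU 145 list, and 13.99 and 13.2 in the HEK293T list.

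The promoter peaks belonged to 71 genes in the formaldehyde list (0.376% of 18886 gene names), 37 in the dual cross-linked DU 145 list (0.196%) and 198 in the HEK293T list (1.05%). The same gene was marked in more than 1 list in 3 cases. PCGF3, a RING finger subunit of a Polycomb repressive complex that ubiquitinates histone H2A, was marked in both DU 145 lists. It accounts for 1 of 71 and 1 of 37 genes (1.41% and 2.70%). UBAP2L, which encodes a ubiquitin-associated RNA-binding protein, and C1orf43, its neighbour, were marked with formaldehyde and in HEK293T. These are 2 of 71 and 2 of 198 genes (2.82% and 1.01%). No gene was marked with dual cross-linking in both cell lines.

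PCGF3 was the only promoter site where peaks of different lists coincided. The formaldehyde peak had 8 tags, a fold enrichment of 37.2 and an FDR of 11.1%. The dual cross-linked peak, which contains it, had 19 tags, a fold enrichment of 53.4 and an FDR of 0.88%. A second dual cross-linked peak further upstream had 13 tags, a fold enrichment of 15.3 and an FDR of 2.58%. The summits of the coinciding peaks stood at -578 and -570 bp from the nearest start (upstream), outside annotated protein-coding transcripts, and their sequences held 8 and 9 CCCTAA hexamers. At UBAP2L and C1orf43 the peaks were apart, at chr1:154192697-154192785 with formaldehyde (7 tags, fold enrichment 28.3, GC 57.3%) and chr1:154192363-154192471 in HEK293T (9 tags, 11.7, GC 29.4%), both in introns.

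Few promoter peaks overlapped a peak of another list. By the midpoint rule these were 1 of 62 formaldehyde peaks against 6.72% of all peaks of the list, 1 of 37 dual cross-linked DU 145 peaks against 16.7%, and 0 of 216 HEK293T peaks against 5.58%. These differences were not tested.

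In DU 145 cells cross-linked with formaldehyde, the 10 promoter peaks with the highest fold enrichment held 6 to 9 tags each. SPDYE2, of the Speedy family of cell cycle regulators, had 49.6. ANKRD13D, an ankyrin repeat protein with ubiquitin-interacting motifs, and SLC6A16, an orphan member of a neurotransmitter transporter family, had 43.4 each. At 37.2 stood, among others, KATNA1 (the catalytic subunit of the microtubule-severing enzyme katanin), OGFOD2, P2RX5 (an ATP-gated channel), PCGF3 and RBM6 (an RNA-binding protein), and TCFL5, a basic helix-loop-helix transcription factor, had 36.6. The 50 bases at the SPDYE2 summit occur 6 times in the reference, so the reads cannot be placed at a single copy. The ANKRD13D peak, in an intron 327 bp downstream of a start, had a GC content of 82.4%, and its sequence above contains a run of C. The FDR of the 62 peaks was lowest, at 6.90%, in an intron of C2, a complement component (11 tags, fold enrichment 17.4). This peak also lay in a window of EHMT2, a histone methyltransferase.

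In DU 145 cells with dual cross-linking, PCGF3 was followed by NINJ2, an adhesion protein induced after nerve injury, with 13 tags, a fold enrichment of 47.7 and the lowest FDR of these peaks (0.69%). ALX4, a homeobox factor of craniofacial development, had 12 tags and 43.8. These NINJ2 and ALX4 peaks were CpG-rich, with 9 and 11 CpG in 68 and 91 bases and GC contents of 76.5% and 83.5%. CDK9, the kinase that releases paused RNA polymerase II, had 10 tags and 27.2 in coding sequence. CDC45, a subunit of the replicative helicase complex, had 11 tags and 25.4. Fold enrichments of 18.4 to 23.9 followed at RAB2A, a GTPase of transport between endoplasmic reticulum and Golgi, CRYBB3, a lens crystallin, SHOC1, a meiotic recombination factor, GHDC and ADARB2. RBPJL, a transcription factor of pancreatic acinar cells, carried the telomeric repeat in an intron, at -652 bp from a transcript start inside the gene and 4789 bp from the nearest annotated gene start, with 15 tags and an FDR of 1.44%. The other low values of FDR were at SNX29 (1.46%), SLC25A2, a mitochondrial ornithine carrier (1.84%), and NT5DC3 (1.93%).

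In HEK293T cells the fold enrichments at the top were lower and close together. TRAF7, a RING finger ubiquitin ligase, MAZ, a zinc finger transcription factor that binds G-rich promoters, and CD68, a lysosomal glycoprotein best known from macrophages, each had 24.9 with 15, 19 and 14 tags. CPNE7, a calcium-dependent phospholipid-binding protein, had 24.5 with 33 tags, although its summit sequence occurs 3 times in the reference. ACTG1 (cytoplasmic actin), RPL13 and RPLP2 (ribosomal proteins) had 22.1, FKBP2 (a prolyl isomerase of the endoplasmic reticulum) 21.0, and GCN1 (which senses stalled ribosomes) and MCM7 (a subunit of the replicative helicase) 20.5. MAZ also had the lowest FDR, 0.66%, and low values were found at FANCA of the Fanconi anaemia repair pathway (0.72%), EIF4A1 (0.78%), RPL13A (0.87%), RPL8 (0.92%) and a second RPL13 peak (1.09%). SLC3A2, the heavy chain of amino acid transporters, had 1.13% at 1 of its peaks, RPLP0 1.19% and PEAK3 1.20%. The longest HEK293T promoter peak, 1760 bp near TEX19, held 616 tags and had the lowest fold enrichment of the list, 4.62.

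Some genes had several HEK293T promoter peaks. At least 2 were present at 32 of the 198 genes, with 5 at RACK1, a ribosomal scaffold protein, 5 at RPL13 with 118 tags together, and 4 each at EIF4A1 and DDX39B. At 61 of the 198 genes, a further peak lay in the gene outside the windows. These gene counts are given without a share over all genes. When peaks within 500 bp were merged, 189 of the 216 promoter peaks and 1787 of all 2025 HEK293T peaks remained. Peaks thus lay close together across the whole list as well. In the formaldehyde list no gene had 2 promoter peaks and 7 of 71 had a further peak, and in the dual cross-linked DU 145 list only PCGF3 had 2 and 3 of 37 genes had a further peak.

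To see which functions the genes had, 22 lists of gene symbols were counted. Membership goes by symbol, so a listed gene need not act in the process that its list is named for. They held 4088 of the 18886 genes, and 58 of the 198 HEK293T genes, 16 of the 71 formaldehyde genes and 6 of the 37 dual cross-linked DU 145 genes were in 1 or more. The list of ribosomal protein symbols stood at the top in HEK293T, with 20 of 172 (11.6%, 7.66% to 17.3%) against 1.05% of all genes, and with 0 of 172 in both DU 145 lists. The 172 symbols include 8 ribosomal S6 kinases, which are not ribosomal proteins and of which 0 had a promoter peak. Of the 172, the 81 genes of cytosolic ribosomal proteins, a subset formed after seeing the data, had a promoter peak in 19 cases (23.5%, 15.6% to 33.8%), and the 78 of mitochondrial ribosomal proteins in 1 case, MRPL12. Among the 19 genes were RPL3, RPL8, RPL13, RPL13A, RPL18, RPL23, RPL23A, RPL26, RPL32, RPL35, RPL35A, RPL36, RPL41, RPLP0, RPLP2, RPS2, RPS14 and RPS19. In the DU 145 lists 0 of 81 allowed a share of up to 4.53%.

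The windows of the cytosolic ribosomal protein genes made up 0.335% of all window bases and held 29 of the 216 HEK293T promoter peaks (13.4%). Their fold enrichments ran from 10.7 to 22.1 with a median of 14.6, their tags from 8 to 84 with a median of 11, and 9 of the 29 had an FDR of 5% or less. Only 4 of the 29 summits were upstream of the start. The summits lay in introns in 18 cases, in 5' UTRs in 5, in coding sequence in 4 and in 3' UTRs in 2. The RPS2 gene held 104 tags in 3 peaks, of which the strongest by fold enrichment (19.3, 11 tags) was in coding sequence. The 29 peaks lay on 10 chromosomes, 19 of them on chromosomes 16, 17 and 19, and without these chromosomes 9 of the 134 genes left in the list of 172 were marked. For 2 of the 29, at RPL26 and RPL36, the summit sequence occurs 2 times in the reference. Ribosomal protein genes are known for their many processed pseudogenes, and the part of such copies in these peaks was not tested. Without these windows, 187 promoter peaks remained in HEK293T, 9.24% of its peaks against 3.71% of positions for all windows.

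Other lists of the translation machinery and of RNA processing had smaller counts. Translation factors and tRNA synthetases had 7 of 102 in HEK293T (6.86%), led by EIF1, which guides start codon selection, with a fold enrichment of 17.1, and VARS1, the valyl-tRNA synthetase, with 16.6. The others were EIF4A1, EIF4G1, EIF5A, EEF1G and EEF2. With formaldehyde, KARS1, the lysyl-tRNA synthetase, was the only member (25.1). Splicing factors and RNA helicases had 4 of 158 in HEK293T (2.53%), with DDX39B and DDX39A, helicases of mRNA export, in front, and 2 of 158 with formaldehyde (RBM6 and DDX19A). In 3 HEK293T peaks a snoRNA or scaRNA gene overlapped the peak (1.39%, against 0.0275% of window pieces): SNORD60 near TRAF7, SNORA48 in EIF4A1 and SNORA21 in RPL23.

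Lists of chromatin, cell cycle and repair genes had 0 to 3 genes in any list of peaks. Polycomb and histone modifiers had 3 of 106 with formaldehyde (2.83% against 0.376% of all genes), PCGF3, NSD3, a histone methyltransferase, and SETD6, a lysine methyltransferase. PCGF3 was its only marked member with dual cross-linking in DU 145 (0.943%, 0.167% to 5.15%, against 0.196% of all genes). In HEK293T the list had 1 of 106 (0.943% against 1.05% of all genes), KAT5, the catalytic subunit of the NuA4 acetyltransferase (fold enrichment 13.8). This list leaves out the histone methyltransferases DOT1L, marked in HEK293T, and EHMT2, marked with formaldehyde. Its counts are therefore not those of all histone modifiers. Shelterin and telomerase genes had 1 of 22 with formaldehyde and 1 of 22 in HEK293T (each 4.545%, 0.807% to 21.8%). With formaldehyde it was SMG6, which is also a nonsense-mediated decay endonuclease (fold enrichment 21.9). In HEK293T it was WRAP53, which brings telomerase to Cajal bodies (12.8), and the interval included the 1.05% of all genes. With formaldehyde the interval lay above the 0.376% of all genes, but it rests on 1 gene. Nuclear scaffold genes had the neighbours SAFB and SAFB2 of 24 genes in HEK293T (8.33%, 2.32% to 25.85%). Cell cycle genes had CDK9 and CDC45 with dual cross-linking in DU 145 and MCM7, CDC37 and CDK11A in HEK293T. DNA repair genes had FANCA of 100 in HEK293T (0.177% to 5.45%), and histone genes H2BC6 of 81 (0.218% to 6.67%). The HEK293T intervals of the cell cycle, repair and histone lists included the 1.05% of all genes. The repair list goes by symbol and is incomplete. It leaves out NTHL1 and MUS81, which were marked in HEK293T, and DNA2, which was marked with formaldehyde. Its counts are therefore not those of all repair genes.

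The list of ubiquitin and proteasome symbols, the pathway in which UCHL1 acts, had 3 of 434 in HEK293T (0.691%, 0.235% to 2.01%), an interval that includes the 1.05% of all genes, and 0 of 434 in both DU 145 lists (interval up to 0.877%). Among the 3 were RNF151 (18.5) and RNF40, a subunit of the H2B ubiquitin ligase. The list, which goes by symbol, is incomplete: it leaves out the RING finger proteins TRAF7 and PCGF3 described above, and the ubiquitin ligases STUB1 and ZNF598 in HEK293T. Its counts are therefore not those of the whole pathway. Solute carriers had SLC6A16 with formaldehyde, SLC25A2 with dual cross-linking in DU 145, and SLC3A2 and SLC7A5, partners in one amino acid transporter, in HEK293T. Oxidative phosphorylation had COX16 with formaldehyde and NDUFA4L2 and COX6A1 in HEK293T.

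Several large lists had HEK293T intervals that included the 1.05% of all genes. Zinc finger genes had 4 of 597 (0.67%, 0.261% to 1.71%), led by ZNF598 and ZNF709. Olfactory receptors had 1 of 390 (OR5L1, up to 1.44%), developmental factors 1 of 212 (FOXK2, up to 2.62%), synapse genes 1 of 143 (STX10, up to 3.86%) and ion channels 1 of 172 (ASIC3, up to 3.22%). Keratins, cadherins and MAP kinase cascade genes had 0. With formaldehyde, zinc finger genes had ZNF471 and ZFP82, synapse genes GABRB2, keratins KRTAP4-8 and the list of multicopy families SPDYE2, LRRC37A and DEFB118. The summit sequence occurs 6 times in the reference at SPDYE2, and 1 time each at LRRC37A and DEFB118. In HEK293T the list of multicopy families had MUC2, whose summit sequence occurs 2 times in the reference. With dual cross-linking in DU 145, the developmental list had LHX9 and the olfactory list OR4M1. The developmental list leaves out the homeobox genes ALX4, described above, and EVX2, which had a formaldehyde promoter peak.

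**Figure D5:**
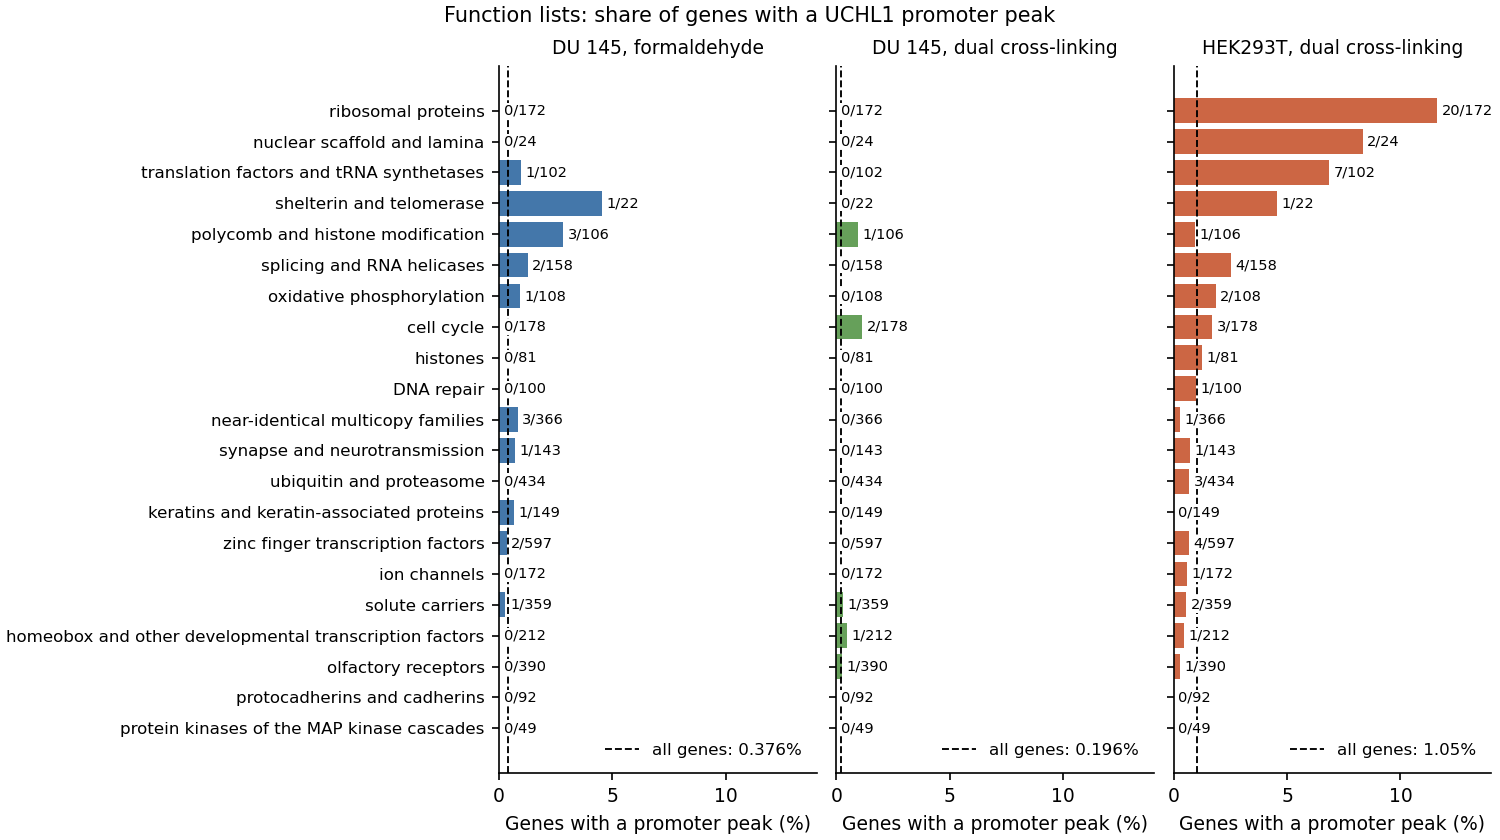
Share (%) of the genes of function lists with a UCHL1 promoter peak, by peak list, with the number of marked genes over the number in the list at each bar and the share of all genes as a dashed line. The list of ribosomal protein symbols stood at 11.6% in HEK293T against 1.05% of all genes, and at 0 of 172 in both DU 145 lists.

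The limit of 1 kb cut through a continuous range of distances. Just inside it were formaldehyde peaks 982 bp from a start of UBAP1L (8 tags, fold enrichment 5.62) and 969 bp from PRTN3 (10 tags, 11.98). Dual cross-linked DU 145 peaks were 972 bp from PALM2AKAP2 (13.1) and 954 bp from SHOC1 (21.4), and HEK293T peaks 999 bp from STUB1 (13.8) and 994 bp from RABL6 (19.3). Just outside were formaldehyde peaks 1010 bp from NPM1 (24.8) and 1043 bp from MOK (37.2), a dual cross-linked DU 145 peak 1043 bp from ARHGEF2 (13.0) and a HEK293T peak 1006 bp from DMXL1 (16.6). AHRR, the repressor of the aryl hydrocarbon receptor, had a peak just outside in both cell lines at the same place, chr5:344650-344764 in DU 145 (9 tags, 10.6) and chr5:344649-344756 in HEK293T (9 tags, 16.6). Its summit sequence occurs 3 times in the reference. The absence of a promoter site common to both lines thus depended on the limit at this gene.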

How the data were processed

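UCHL1 ChIP-seq peak lists from 3 conditions were used, each called by the authors in 1 ChIP library against 1 input library. Per the labels and the study's methods, SOLiD reads were mapped to hg19 with Lifescope and peaks were called with MACS 1.4.2 at p 1e-05. Tags per peak are deposited as a count without scaling, and library totals are not given. The score the authors deposited equals -10 log10 of the p from MACS, as read from its lowest value of 50. The fold enrichment deposited by the authors is the ratio of tags to the local input background, and the deposited FDR is a percent. How multi-mapping reads were treated is not given in the sources used here.

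From these files, peaks on chromosomes 1 to 22 were placed on GRCh37 (hg19), with 0 peaks past a chromosome end. Starts came from the transcripts typed protein_coding in GENCODE 44. Shares of positions were enumerated over every position with a determined midpoint base. Because a condition had 1 library, no test was run and peaks were not treated as replicates. Summits were searched with 50 bases in the whole reference on both strands. The features at summits come from protein-coding transcripts, with coding sequence before 5' UTR, 3' UTR and intron. Genes named are the 10 peaks per list with the highest fold enrichment, those with the lowest FDR (10 per list where more than 10 had an FDR of 5% or less), genes in 2 or more lists, the top 2 genes of each function list, peaks with telomeric repeats, the peaks beside the 1 kb limit, and PCGF3. Further genes named in counts, NTHL1, MUS81, DNA2, DOT1L, EHMT2, EVX2, C2 and the longest peak were chosen after their values were seen. The members, lists and rules were chosen with earlier results of these data known. The overlap count was tested on simulated data (2000 intervals, 0 wrong). Some genes and 1 function list that the rule names are not reported here. Alternatives covered the window, transcripts, thresholds, merging and motif definitions. Scripts ran in Python 3.11.15 with scipy 1.17.1 for intervals, pandas 2.3.3 and numpy 2.4.6 for tables, numba 0.67.0 for the sequence search and matplotlib 3.10.9.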

Additional observations from a re-analysis of the deposited data

How the results depend on the processing

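No paired analysis was possible because each condition had 1 ChIP library and no test was run. An alternative is counted as a change when its value left the 95% interval of the reported value (for counts, when it moved by more than 1.5 times), and 58 alternatives stayed within it. In the order formaldehyde, dual cross-linking in DU 145, HEK293T, the promoter share became 1.13%, 1.26% and 5.73% with windows of 500 bp, 0.583%, 0.471% and 3.51% with 250 bp, and 5.32%, 6.59% and 20.2% with 2 kb, all of which follow from smaller or larger windows. With 1 start per gene it was 1.20%, 1.65% and 5.28%. That setting counted 31, 21 and 107 peaks, of which 31, 18 and 103 were promoter peaks, because an annotated gene start need not be that of a protein-coding transcript. With basic transcripts only, the promoter share was 1.55% with formaldehyde and 7.65% in HEK293T. With a score of at least 100 it was 1.66%, 1.38% and 8.45%, with an FDR of 5% or less 0.0% with formaldehyde, and with a fold enrichment of at least 20 1.79% with dual cross-linking in DU 145. The cause was not tested. Without chromosomes 16, 17 and 19, an alternative chosen after seeing the data, it was 6.67% in HEK293T. The ratio to positions moved out of its interval only with windows of 250 bp, to 0.571, 0.441 and 2.47. The median GC of formaldehyde promoter peaks was 41.0% over 100 bases on each side of the summit, since flanks outside the peak are then read, and that of HEK293T peaks with an FDR of 5% or less was 51.7%, with a median fold enrichment of 16.03. The ratio of promoter to other peaks, 0.889 by fold enrichment with dual cross-linking in DU 145, was 1.00 by tags and 0.986 by score, and in HEK293T it was 1.06 by fold enrichment, 0.833 by tags and 0.989 by score. Telomeric repeats of 4 hexamers were in 0.0% of promoter peaks of both DU 145 lists, and single hexamers in 7.41% of HEK293T peaks. With a stricter rule in 500 bp, 37.5% of HEK293T promoter peaks were at CpG-rich starts. Genes in more than 1 list numbered 1 with windows of 500 bp, 13 with 2 kb and 1 with the midpoint rule, against 3. Ribosomal protein genes numbered 9 in HEK293T without chromosomes 16, 17 and 19, against 20. Peaks of 6 to 12 tags carry wide counting error, and without replicates or library totals a difference between lists cannot be told apart from one between libraries.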

Other observations

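Between 1 and 2 kb from a start, the lists shared sites that the 1 kb rule leaves out. In an intron of PRDM10, which encodes a zinc finger transcription factor, all 3 lists had a peak at the same place, chr11:129818846-129818933 with formaldehyde (12 tags, fold enrichment 9.44, FDR 24.9%). It was 1329 bp from the nearest start. The dual cross-linked peaks there had 12 tags and a fold enrichment of 19.2 in DU 145 and 11 tags and 19.6 in HEK293T, and the summit sequence occurs 1 time in the reference. The 2 DU 145 lists also shared sites 1561 bp from GDPD5, a phosphodiesterase (fold enrichments 31.02 and 14.1), and 1236 bp from OR6C3, an olfactory receptor (19.8 and 35.9). None of these 3 sites held tandem telomeric hexamers, unlike PCGF3. Within 2 kb, 4 of 137 formaldehyde peaks, 5 of 84 dual cross-linked DU 145 peaks and 2 of 409 HEK293T peaks overlapped another list, against 6.72%, 16.7% and 5.58% of all peaks of these lists. These differences were not tested.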
